A study of Canis lupus familiaris with 20 samples.

Results

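This account compares muscle of escaper dogs with muscle of normal dogs. An escaper is a dog with the disease that stays mildly affected. The dogs were chosen by their labelled disease state, 2 labelled DMD escaper and 4 labelled normal, out of 10 dogs in all. Each dog was hybridised on 2 arrays with swapped dyes, so 12 of the 20 arrays of the study enter the comparison, 4 of escapers and 8 of normal dogs. The other 4 dogs, 8 arrays, are labelled DMD affected and serve here for the estimate of spread and as a second dystrophic group. Every dog was 2 years old, and the labels name neither the muscle sampled, nor the breed, nor the dystrophin allele. DMD stands for Duchenne muscular dystrophy. The values are log2 ratios of a dog over a common reference, the RNA of 1 normal individual, so 0 means the level of that individual and a step of 1 means a factor of 2. The 2 arrays of a dog were averaged, and 6122 named genes could be measured, 1 probe for each. Dogs within a group are numbered in the order of deposit.

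Dystrophin links the actin cytoskeleton of the muscle fibre to the matrix around it through a complex of membrane proteins. Without it fibres break and regenerate in cycles, immune cells enter, and connective tissue replaces muscle. Regenerating fibres pass again through the isoforms of foetal muscle, such as cardiac alpha-actin, cardiac troponin T and perinatal myosin. Osteopontin, the product of SPP1, is a cytokine of macrophages and regenerating muscle, and it is known as a modifier of the severity of Duchenne dystrophy. Escaper dogs lack dystrophin and yet walk well as adults, and the escapers of the colony best known for this are related animals, which the labels here do not state. The comparison asks what escaper muscle has apart from healthy muscle.

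The escapers lay at unlike distances from the normal dogs. The median distance of a gene from the mean of the 4 normal dogs was 0.31 in escaper 1 and 0.86 in escaper 2. For a normal dog set against the mean of the other 3 it was 0.22 to 0.26, and for affected dogs 0.33 to 0.74. Escaper 2 lay at least 1 log2 unit from the normal mean in 2715 genes and escaper 1 in 580. Both escapers lay on the same slide and no other dog did, so slide and escaper status cannot be told apart. A mean over the escapers is therefore mostly a statement on escaper 2, and the results below keep what both escapers share apart from what the mean alone shows. On the 20 arrays 30.5% to 60.2% of probes were well above background. The 60.2% belongs to the Cy5 array of affected 4, and the next highest was 43.6%. The limited number of dogs sets the precision. In bulk muscle, fewer cells of a type and less RNA per cell cannot be told apart.

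Of 16008 probes tested with limma over all 10 dogs, 4 passed a Benjamini-Hochberg adjusted p of 0.05 between escapers and normal dogs, which is 0.025% of probes. All 4 were lower in the escapers, and each had an adjusted p of 0.0467. They stand for ROGDI, RNF128, HTRA4 and a probe without a gene name, which was chosen after its values were seen. The first 30 of the 60 bases of each probe are shown, because these 4 probes are the whole of what passed and the unnamed one is known by its sequence alone.
ROGDI: atgagctgtggcgccctcgcatttatttgc
RNF128: ccaacctttgaagaagatgaaactcctgat
HTRA4: tcgaggaagtcaaactttgatcctgacagt
unnamed probe: aactaactgaactgtggagacaagcctggt
The probes lie at chr6:39666304-39666363 on the plus strand (ROGDI), chrX:83421980-83422039 on the plus strand (RNF128), chr16:29512000-29512059 on the minus strand (HTRA4) and chr16:4059805-4059864 on the minus strand (unnamed), as the array files give them. The build is not given in the sources used here, so exon and UTR positions were not looked up.

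ROGDI, whose loss in humans causes Kohlschütter-Tönz syndrome, had ratios of 1.90, 2.06, 1.54 and 2.61 in the normal dogs and −0.55 and −0.95 in the escapers. The 2 groups lay 2.08 apart at their nearest dogs, and the affected dogs, at −0.74, −0.39, −0.77 and −0.69, lay beside the escapers. ROGDI fell 6.85-fold in escapers (log2 difference −2.78, SE 0.32, limma adjusted p = 0.0467), and its probe was well above background on all 8 normal and all 4 escaper arrays. It is the 1 named gene of the 4 that was measured on both sides.

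RNF128, a ubiquitin ligase first described in T cells, had 2.43, 2.02, 2.58 and 2.46 in normal dogs against −0.72 and −0.54 in escapers. HTRA4, a secreted serine protease, had 3.29, 3.18, 2.59 and 2.93 against 0.24 and −0.61. The unnamed probe had a log2 difference of −2.99 (SE 0.37). Among normal arrays, RNF128 was well above background on 6 of 8, the unnamed probe on 5 of 8 and HTRA4 on 8 of 8. None of these 3 probes was well above background on any escaper array, so their escaper level is a bound. Against the lowest signal that counts as well above background on those arrays, or the probe's own signal where that was higher, HTRA4 was at least 1.84-fold lower, RNF128 at least 1.49-fold lower and the unnamed probe at least 1.54-fold lower in escapers. Bounds of this kind below were made the same way. The brighter group entered by its own signal on every array, also where that was not well above background. A bound is therefore strict only where each array of the brighter group was well above background, as for HTRA4 but not for RNF128 or the unnamed probe. From scanner signals with another background correction and loess normalisation, the differences of HTRA4 and RNF128 were −0.66 and −0.48, and that of ROGDI −2.30 (adjusted p = 0.0657), so none passed.

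The count of 4 depended on single dogs. It was 0 without normal 1, normal 3, normal 4, affected 3, affected 4 or escaper 2, 1 without normal 2 or affected 2, 70 without affected 1 and 4549 without escaper 1. The fit without 1 escaper assumes that the dog left varies as the other groups do. These counts are not always of the same probes. Without affected 2 the 1 probe was higher in escapers, and without affected 1, 46 of the 70 were higher. At an unadjusted p under 0.05 there were 3632 probes (22.7%), and at an adjusted p under 0.1 there were 99. MRPL1 (adjusted p = 0.0594) and PLEKHO1 (0.0626) came closest among named genes that missed. Everything that follows describes where dogs lay, and no other gene is called changed.

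Both escapers lay above the highest of the 4 normal dogs in 983 of the 6122 genes (16.1%) and below the lowest in 1033 (16.9%). These shares over all genes are the background for each list below. In 197 of the 6122 genes no normal array was well above background, so only dystrophic dogs brought them into the test. This favours a place above the normal dogs. Such genes included 4 of 15 tested chemokines, cytokines and receptors, 3 of 16 in TGF-beta and activin signalling and 3 of 20 other matrix genes. They also included 2 of 13 macrophage markers and 2 of 10 collagens. For these lists the share above over all genes is not a like background. The distance from the nearer escaper to the normal range is called the gap. In most genes with both escapers outside on the same side it was small, with a median of 0.27 upward and −0.22 downward. Escaper 2 lay farther out than escaper 1 in 839 of the 983 and in 907 of the 1033. A gap of at least 1 log2 unit, a factor of 2, was found upward in 102 genes (1.67%) and downward in 43 (0.702%). Of these, 97 and 39 also had all 4 escaper arrays beyond all 8 normal arrays. In 30 of the 102 the probe was not well above background on any normal array, and in 18 of the 43 it was not on any escaper array. With loess-normalised scanner signals the gap of at least 1 was found in 25 and 7 genes. Of 145 genes chosen to be looked at singly, 64 had a mean difference more than 1.5 times smaller with those signals, and none had the opposite sign. This was so for 8 of the 85 genes well above background on all normal and escaper arrays and for 56 of the other 60, so the sizes given for dim genes depend on the processing of the signals.

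Escaper 2 alone lay above the normal range in 1088 genes and below it in 1167, and escaper 1 alone in 216 and 225. In 605 genes the escapers left it on opposite sides, and in 805 both stayed within. Group means at least 1 apart were found in 1542 genes, of which 978 had both escapers outside on that side and 564 (9.21%) did not. Of those 564 genes that only the mean shows, 300 higher and 264 lower, escaper 2 alone was above the range in 278 and below it in 242.

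**Figure D1:**
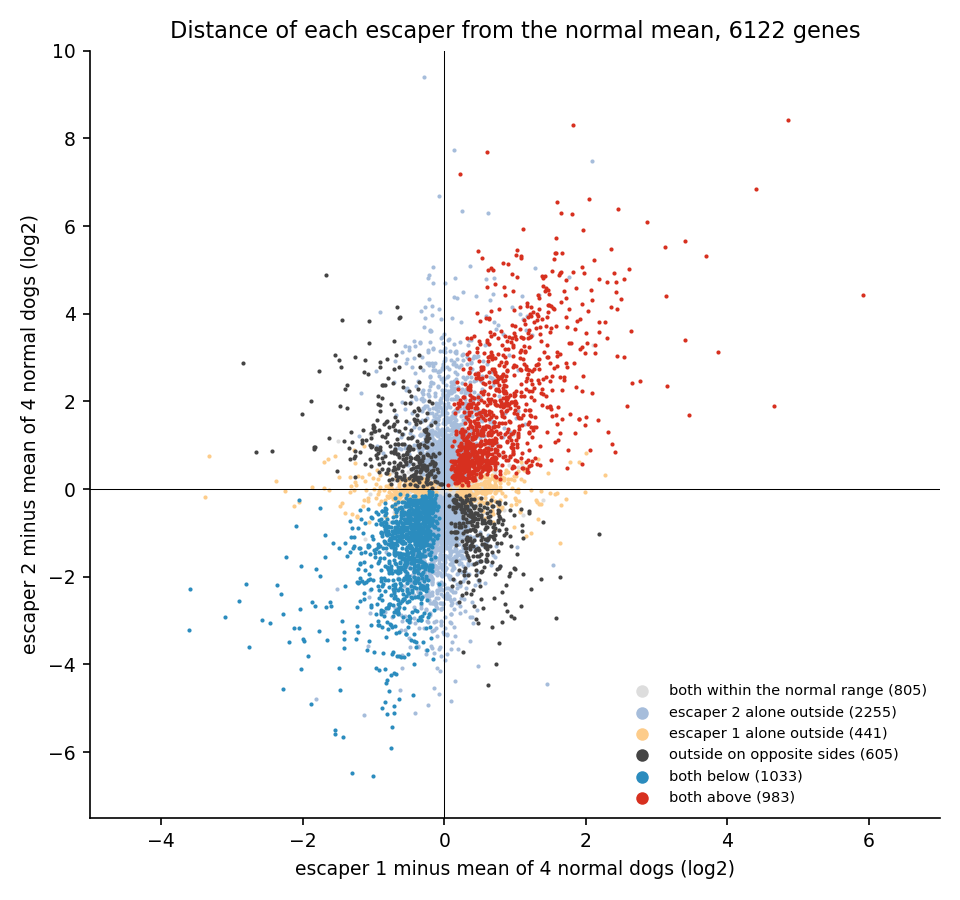
Each point is 1 of 6122 genes, with the log2 distance of escaper 1 from the normal mean across and that of escaper 2 upward, coloured by where both escapers lay against the range of the 4 normal dogs. The cloud is stretched along the axis of escaper 2, which was at least 1 unit from the normal mean in 2715 genes against 580 in escaper 1, and the 605 genes in the upper left and lower right had the escapers outside on opposite sides.

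SPP1, osteopontin, had the widest gap of any gene well above background on every escaper array. Its ratios were −9.89, −9.96, −9.13 and −10.39 in normal dogs and −4.98 and −1.43 in escapers. Every normal dog was far under the reference, and the lower escaper stood 17.8-fold above the highest normal dog, although the mean difference of 6.64 (SE 1.30, limma adjusted p = 0.0918) did not pass. Its probe was well above background on 4 of 8 normal arrays, so the fold rests in part on unmeasured signal. With loess-normalised scanner signals the mean difference was 4.52. The affected dogs, from −5.79 to −1.08, spanned both escapers.

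Foetal isoforms of the contractile apparatus were also among the 12 widest upward gaps. TNNT2, cardiac troponin T, had −3.21, −3.23, −3.46 and −3.03 in normal dogs and 0.47 and 2.08 in escapers, a gap of 3.49. ACTC1, cardiac alpha-actin, had −3.99, −4.09, −4.11 and −4.16 against −0.69 and 1.57, a gap of 3.31. In both genes the normal dogs lay close together, and both probes were well above background on every normal and escaper array. The mean differences were 4.50 (SE 0.77, limma adjusted p = 0.0721) and 4.53 (SE 0.996, adjusted p = 0.106). Both escapers had more TNNT2 than any affected dog, whose highest was 0.43.

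Other genes with wide upward gaps encode matrix or cell surface proteins. COL3A1, the chain of type III collagen, had −2.73, −2.34, −2.12 and −3.70 in normal dogs and 1.68 and 4.12 in escapers, a gap of 3.80, and was well above background on 3 of 8 normal arrays. WISP2, a matricellular protein of the CCN family, had 1.83, 1.80, 1.15 and 1.40 against 4.18 and 5.15, with a gap of 2.35. BGLAP, osteocalcin, had a gap of 2.38, with escapers at 0.58 and 1.06. GPC3, a cell surface heparan sulphate proteoglycan, had escapers at 0.01 and −0.30, a gap of 2.16, and was at least 1.45-fold higher because no normal array measured it. In BGLAP and GPC3, as in TNNT2, both escapers lay above all 4 affected dogs in the deposited values. With loess signals the mean difference from normal dogs was 0.50 in GPC3 and 2.37 in BGLAP. In the deposited values that of GPC3 was 2.46 without escaper 1 and 2.77 without escaper 2.

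The remaining genes of the 12 widest upward gaps, taken among genes well above background on all arrays of the higher group, have varied roles. IGSF22, a member of the immunoglobulin superfamily, had escapers at 2.97 and 1.49 against −3.23 to −2.63 in normal dogs, none of whose arrays measured it, and was at least 4.85-fold higher. PAK1, a kinase that acts on actin, was at 0.37 and 0.38 in the escapers and at −2.85, −3.53, −2.93 and −2.81 in normal dogs. PLEKHO1, a plasma membrane protein that binds casein kinase, was at 0.78 and 2.06 against −3.04 to −1.70. PAK1 is the gene of this group in which the escapers lay closest together, and its probe was well above background on 2 of 8 normal arrays. CHRDL2, a secreted binder of bone morphogenetic proteins, was at 2.53 and 1.77 with a gap of 2.65. SLC11A1, the metal transporter of the macrophage phagosome, was at −1.43 and 0.98 with a gap of 2.33. With loess signals the mean differences of the dim probes IGSF22, PAK1 and PLEKHO1 were 2.14, 1.55 and 1.31 against 5.17, 3.41 and 3.77 in the deposited values.

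**Figure D2:**
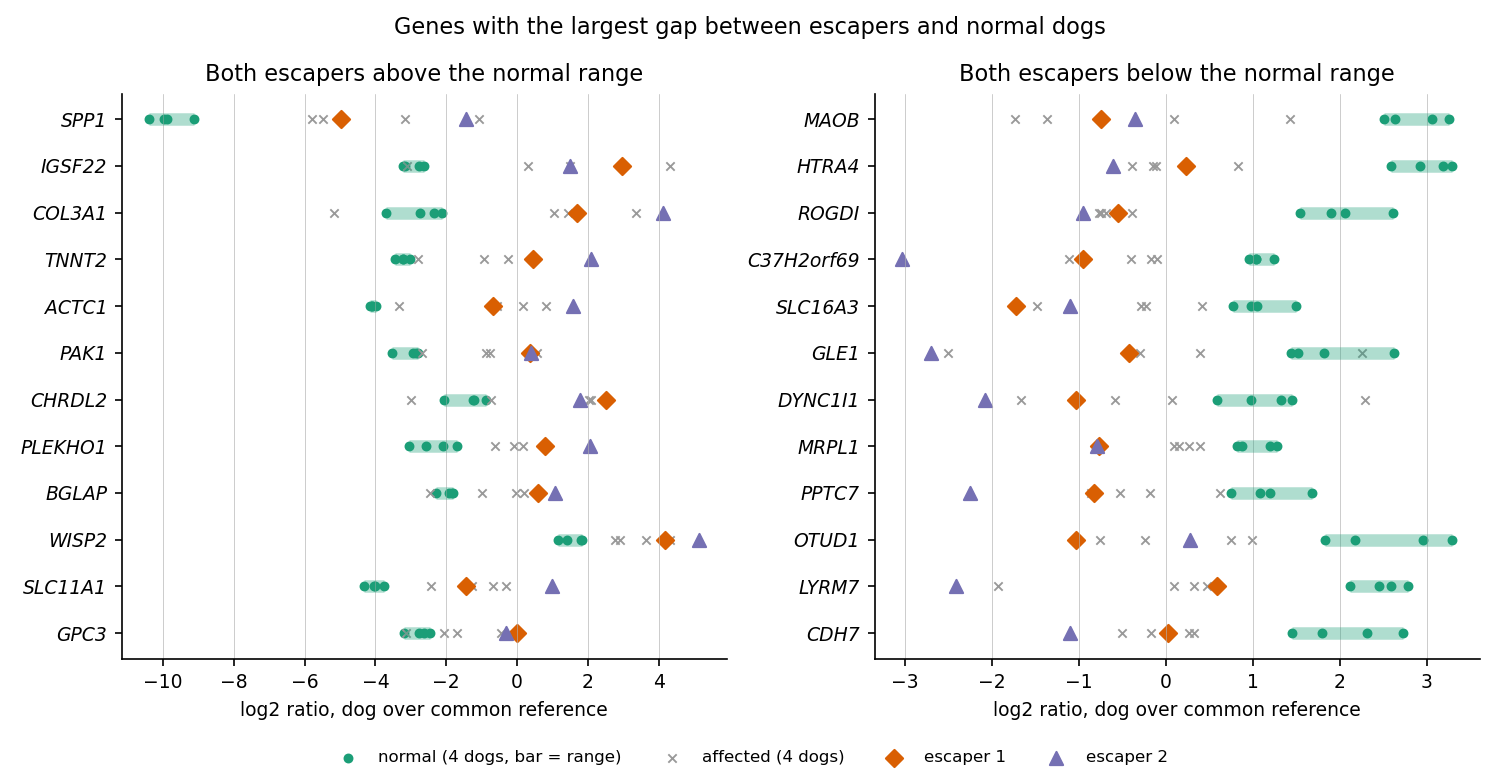
Log2 ratio to the reference in each dog for the 12 genes with the widest gap upward (left) and downward (right), with normal dogs as circles on a bar for their range, affected dogs as crosses and the escapers as a diamond and a triangle. Both escapers lie clear of the bar in every row, by 4.15 in SPP1 and by 2.86 in MAOB, while affected dogs overlap the escapers in most rows.

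Below the normal range the gaps were narrower. MAOB, a monoamine oxidase of the outer mitochondrial membrane, had 2.51, 3.06, 3.26 and 2.64 in normal dogs and −0.75 and −0.36 in escapers, where its probe was not above background, which makes it at least 2.60-fold lower. C37H2orf69 was at 1.03, 0.96, 1.04 and 1.25 against −0.96 and −3.03, with a gap of −1.92. SLC16A3, the monocarboxylate transporter that exports lactate, was at 0.77 to 1.49 against −1.72 and −1.10 and was at least 1.73-fold lower. Both escapers lay below each normal dog in all 3, and affected dogs lay between or beside them. With loess signals the mean differences of MAOB, C37H2orf69 and SLC16A3 were −1.24, −1.04 and −0.71 against −3.42, −3.06 and −2.48.

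MRPL1, a protein of the large subunit of the mitochondrial ribosome, also had all its arrays well above background, as ROGDI did. It had 1.28, 0.88, 0.81 and 1.19 in normal dogs and −0.77 and −0.79 in escapers, a gap of −1.59. The mean difference was −1.82 (SE 0.24, limma adjusted p = 0.0594). The affected dogs, at 0.40, 0.09, 0.26 and 0.15, lay between the 2 groups, so MRPL1 is the 1 gene of the 12 widest downward gaps in which both escapers were below all 4 affected dogs.

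Other genes of the downward set were LYRM7, an assembly factor of respiratory complex III (gap −1.52), GLE1, an mRNA export factor (−1.86), DYNC1I1, a dynein intermediate chain (−1.63), OTUD1, a deubiquitinase (−1.55), and CDH7, a cadherin (−1.43). PPTC7, a mitochondrial phosphatase, was at least 1.65-fold lower. C37H2orf69, GLE1, LYRM7 and CDH7 were not well above background on the arrays of escaper 2, so its level there is a bound. Outside the widest gaps, small p-values led to EDN3, an endothelin (at least 1.30-fold higher), RAB32, a small GTPase of lysosome-related organelles (difference 1.74), TUBA1B, an alpha-tubulin (2.88), and ANKH, a pyrophosphate transporter (−2.10), each with an adjusted p of 0.0721.

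Of 16 listed genes of foetal and regenerating fibres, 9 were measured, and both escapers lay above the normal range in 5 and below it in none, that is 55.6% against 16.1% over all genes. The 5 were ACTC1, TNNT2, MYH8, CHRNG and the non-coding RNA H19. MYH8, perinatal myosin, had −3.86, −4.37, −3.66 and −4.55 in normal dogs and 0.55 and −2.22 in escapers, so here escaper 1 was the higher. CHRNG, the foetal subunit of the acetylcholine receptor, had −3.08 to −3.35 against −1.77 and 1.33. H19 lay closer to the range, at −2.07 and −1.76 against a highest normal dog of −2.47. The median distance from the normal mean over the 9 genes was 1.42 in escaper 1 and 0.93 in escaper 2, against −0.01 and −0.04 over all genes, and none of the 9 passed the test.

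Satellite cell and myoblast markers were thinly measured, with 3 of 10 tested. CHRNA1, the alpha subunit of the acetylcholine receptor, had escapers at −1.44 and 1.67 and was at least 2.53-fold higher. MYF5, a transcription factor of myogenic precursors, was at −1.72 and −0.27 against −2.98 to −2.16. Both escapers lay above the normal range in these 2 genes. With loess signals this held for 0 of the 3, and the list's median difference was 0.45 against 1.43.

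Collagens held the highest share of genes above the range in both escapers among the lists with at least 5 tested members. Of 10 tested fibrillar and network collagens, 8 had both escapers above (80.0%), 7 of them with a gap of at least 1, and 2 had escaper 2 alone above. COL1A2, a chain of type I collagen, had −1.83, −2.23, −1.54 and −2.53 in normal dogs and 0.39 and 2.69 in escapers. COL5A1 was at 0.55 and 1.72 against −1.58 to −0.94, COL5A2 at −0.49 and 2.61 against −3.25 to −2.18, and COL6A1 at −0.26 and 2.32 against −2.05 to −1.45. In each of these genes escaper 1 lay between the normal dogs and escaper 2. COL12A1, not measured on any normal array, was at least 2.49-fold higher. COL1A1 is 1 of the 2 exceptions, with escaper 2 at 2.53 and escaper 1 at −1.15 against −1.31 to −0.24, but no array of the normal dogs or of escaper 1 was well above background, so those levels cannot be ordered. The figure for the escapers' mean, 1.42-fold higher, takes the unmeasured signal of escaper 1 as it stood, so it is no strict bound. The median distance over the list was 1.51 in escaper 1 and 4.38 in escaper 2.

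Other matrix proteins and matrix enzymes followed less closely. Of 20 tested, 8 had both escapers above the range (40%), none had both below, and 8 had escaper 2 alone above. Apart from SPP1 and WISP2, SPARC, a collagen-binding glycoprotein, had −1.59, −1.65, −1.34 and −1.59 against 0.05 and 1.26. The list's median distance was 0.26 in escaper 1 and 3.19 in escaper 2. Fibroblast markers were above in both escapers in 3 of 10, COL1A2, COL3A1 and PDGFRA, the receptor for platelet-derived growth factor, the last at least 1.56-fold higher. The fibroblast proteoglycans were high in escaper 2 alone: decorin, DCN, was at −0.33 in escaper 1 and 3.33 in escaper 2 against −1.76 to −0.25, and lumican, LUM, at −0.86 and 3.99 against −1.10 to −0.10. THY1, a surface protein of fibroblasts, had both escapers below, at 0.12 and −0.19 against 0.32 to 0.44. The median log2 ratio over the 10 markers ran from −1.89 to −0.75 in normal dogs and was −0.56 and 2.47 in the escapers. The fibroblast list holds COL1A1, COL1A2 and COL3A1 of the collagen list and DCN and LUM of the other matrix list, so it is no separate gauge. The part of fibroblast number in the collagen values was not tested.

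Of 16 tested genes of TGF-beta and activin signalling, both escapers were above in 5 and below in none (31.2%). TGFBR3, the co-receptor betaglycan, was at −0.64 and 1.40 and at least 1.66-fold higher. TGFB2, a ligand, was at −0.88 and 0.17 against −2.56 to −1.36. BMP4, another ligand of the family, was at 1.06 and 2.63 against −1.21 to 0.52. The list's median distance was 0.0037 in escaper 1 and 1.61 in escaper 2. Escaper 1 was above the normal range in 5 of the 16 and below it in 3. In the Notch pathway 6 of 21 genes were measured. Both escapers were below in 1 (16.7%), which is near the 16.9% over all genes. It was APH1A, a subunit of gamma-secretase, at 0.17 and −0.04 against 0.64 to 1.12.

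Macrophage genes were above the range in both escapers in 10 of 13 tested markers (76.9%) and below in none. GPNMB, a glycoprotein of phagocytes, had −4.44, −4.84, −4.07 and −4.55 in normal dogs and −2.43 and 2.15 in escapers. CYBB, a subunit of the phagocyte oxidase, was at −0.87 and 1.47 against −2.75 to −2.51, and the protease CTSS at −1.58 and 2.38 against −4.21 to −2.71. LGALS3, galectin-3, was at −2.45 and 0.28 against −4.25 to −3.57. In all 4 genes escaper 2 was far above escaper 1. CD68, the lysosomal marker of macrophages, was an exception, at 0.13 in escaper 1, within the normal −0.08 to 0.21, and 0.58 in escaper 2. The median log2 ratio over the 13 markers was −2.75 to −2.11 in normal dogs, −1.59 in escaper 1 and 1.47 in escaper 2, with affected dogs from −1.37 to −0.20. With loess signals 8 of the 13 lay above in both, and the median difference of the list was 1.49 against 2.44.

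Lists tied to immune cells had the same direction. C1QA, C1QB, C1QC and CTSS are members of both the macrophage markers and the antigen presentation and complement list, so these lists are partly the same genes. In antigen presentation and complement, 9 of 15 tested genes were above in both escapers (60.0%), among them C1QA, a chain of the complement initiator C1q, at −1.72 and 1.62 against −2.95 to −2.11, and the peptide transporter TAP1 at −0.04 and 0.86 against −1.34 to −0.59, although no array of escaper 1 and 2 of 8 normal arrays measured TAP1. Of 14 interferon response genes, 7 were above (50%), 3 lay on opposite sides and none lay below. GBP1, a guanylate-binding protein, was at 0.73 and 3.67 against −2.08 to −0.66, and IRF9, a factor of interferon signalling, at 0.25 and 0.29 against −0.65 to −0.21. In IRF9 the escapers nearly coincided. PSMB9, an immunoproteasome subunit, was at 1.26 and 2.59, but normal dogs spread from −3.23 to 0.42.

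Of 15 tested chemokines, cytokines and receptors, 6 were above in both escapers (40%) and 8 in escaper 2 alone. In 4 of the 15 no normal array was well above background. CXCL14, a chemokine, had −5.14, −4.79, −3.28 and −4.71 against −1.36 and 1.05 (difference 4.33, SE 0.87, limma adjusted p = 0.0983). CXCR4, a chemokine receptor, was at −0.80 and 2.25 against −3.17 to −1.55, and the receptor TNFRSF1A at −0.97 and −0.04 against −2.06 to −1.67. CCL2, which attracts monocytes, was at −1.78 and 4.72 against −4.67 to −1.95, so escaper 1 was 0.17 above the highest normal dog and escaper 2 far beyond. The list's median distance was 0.51 in escaper 1 and 4.78 in escaper 2, the widest split among the lists with at least 5 tested members. With loess signals 5 of the 15 lay above in both and the median difference was 1.28 against 2.48.

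Lysosomal genes were above in both escapers in 8 of 18 (44.4%) and below in 1. The enzymes GUSB, at −0.30 and 0.45 against −1.59 to −0.87, and LIPA, at −0.67 and 1.14 against −1.89 to −1.20, were among them. Annexins and S100 proteins, which bind calcium, were above in 6 of 15 (40%). ANXA4 was at −0.57 and −0.47 against −2.13 to −1.31, and S100A4 at −1.05 and 2.44 against −3.01 to −1.70. Cytoskeletal genes were above in 9 of 26 (34.6%) and below in 1, with TUBB2A, a beta-tubulin, at −2.24 and 0.78 against −3.74 to −3.34 and GSN, the actin-severing gelsolin, at 0.62 and 1.04 against −1.22 to −0.53, its probe being saturated on 10 of 20 arrays. ANXA4 and GSN had the escapers close together, the others did not. CTSS is a member of both the lysosomal list and the macrophage markers. Macrophage marker levels moved with these lists too, and their part in the result was not tested.

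**Figure D3:**
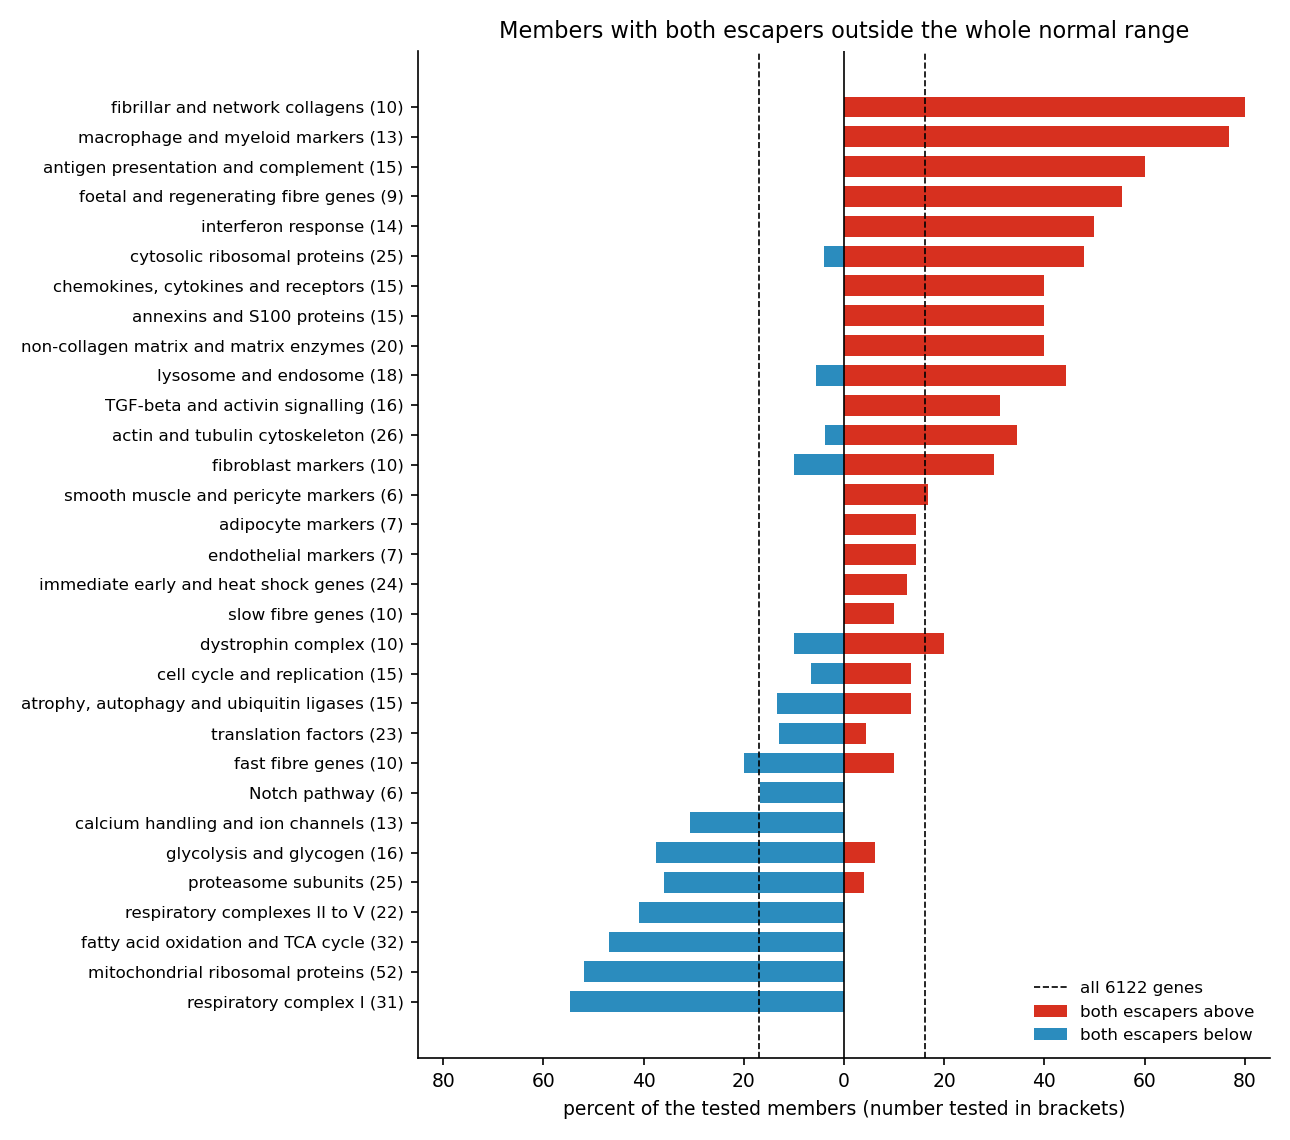
Bars give the percent of tested members of each gene list (number tested in brackets, lists with at least 6) with both escapers above (right) or below (left) the range of the 4 normal dogs, and dashed lines mark the shares over all 6122 genes, 16.1% above and 16.9% below. Collagens (80.0%) and macrophage markers (76.9%) reach farthest to the right, and complex I (54.8%) and mitochondrial ribosomal proteins (51.9%) farthest to the left.

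The 4 lists with the highest shares below the range hold mitochondrial genes. Of 52 tested mitochondrial ribosomal proteins, 27 had both escapers below the normal range (51.9% against 16.9% over all genes) and none had both above. Besides MRPL1, MRPL15 had 0.33, 0.32, 0.38 and 0.43 in normal dogs and −0.35 and −1.08 in escapers, and MRPL30 had 1.38, 1.15, 0.89 and 0.98 against 0.26 and 0.14. The nearer escaper lay 0.67 below the lowest normal dog in MRPL15 and 0.63 below in MRPL30. Escaper 1 was below the range in 28 of the 52 and escaper 2 in 48, and the medians of their distances were −0.37 and −1.32. Cytosolic ribosomal proteins lay the other way, with 12 of 25 above in both (48.0%) and 1, RPLP1, below. Their distances were small, with medians of 0.20 and 0.59. RPS9, of the small subunit, was at 0.18 and 0.43 against −0.39 to −0.28. RPS28, at 0.67 and 0.91, was saturated on 18 of 20 arrays. Cytosolic ribosomal protein genes have many processed copies in mammalian genomes, so a probe may also bind such a copy.

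Respiratory complex I, the entry of electrons from NADH, had both escapers below in 17 of 31 tested genes (54.8%), on opposite sides in 3 and above in none. NDUFB3 had 1.04, 1.21, 1.03 and 1.11 in normal dogs and 0.30 and −0.73 in escapers. NDUFV3 was at 0.09 and −1.25 against 0.77 to 1.12, and NDUFB5 at 0.16 and −1.88 against 0.73 to 1.30. For these 3 subunits escaper 1 lay a little under the normal dogs and escaper 2 far under. Median distances over the list were −0.29 and −2.05. In complexes II to V 9 of 22 were below in both (40.9%), with UQCRFS1, the iron-sulphur subunit of complex III, at 0.02 and −2.40 against 0.70 to 0.80, COX5A of cytochrome oxidase at 0.18 and −2.03 against 1.30 to 2.06, and ATP5J of the ATP synthase at 0.20 and −0.99 against 0.72 to 0.94.

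Genes of fatty acid oxidation and the TCA cycle showed the same order of dogs, and those of glycolysis and glycogen use did so less. Of 32 tested genes of fatty acid oxidation and the TCA cycle, 15 were below in both (46.9%) and none above. SUCLA2, a subunit of succinate-CoA ligase, was at 0.50 and −2.49 against 1.10 to 1.41, its partner SUCLG1 at 0.03 and −1.89 against 0.44 to 0.82, and ETFDH, which passes electrons from fatty acid oxidation to ubiquinone, at −0.18 and −2.23 against 0.24 to 0.36. Escaper 1 was 0.41 to 0.59 below the lowest normal dog in these. Of 16 genes of glycolysis and glycogen use, 6 were below in both (37.5%), 5 on opposite sides and 1 above. Escaper 1 was above the normal range in 6 of the 16 and below it in 6. PYGM, muscle glycogen phosphorylase, was at 0.38 and −3.67 against 0.96 to 3.05, PFKM, muscle phosphofructokinase, at 0.57 and −3.66 against 1.10 to 1.47, and PHKB, a subunit of phosphorylase kinase, at 0.41 and −0.27 against 0.86 to 1.60. Without escaper 2, the median distances of the complex I, complexes II to V, fat and sugar lists were −0.29, −0.32, −0.23 and −0.25.

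Among 13 genes of calcium handling and ion channels, 4 were below in both (30.8%). JPH1, which holds the tubule and reticulum membranes together, was at 0.30 and −2.91 against 0.94 to 1.44, and CLCN1, the muscle chloride channel, at 0.94 and −3.30 against 1.19 to 1.76. CACNA2D1, a calcium channel subunit, was at 0.29 and −1.41 against 0.54 to 1.11. Proteasome subunits were below in 9 of 25 (36.0%), by small gaps, with PSMA2 at −0.66 and −0.99 against −0.40 to 0.04 and PSMA6 at −0.48 and −1.13 against −0.17 to 0.10. PSMD9 was above, at −0.75 and 0.17 against −1.87 to −1.27. In the translation factors 3 of 23 were below (13%) and 1 above, among them CPEB4 below at −0.81 and −1.56 and EIF3D above at −0.12 and −0.20. In the atrophy and autophagy list 2 of 15 were above and 2 below (13.3% each), with ATG5 below at 0.24 and 0.14, MAP1LC3B below at −0.47 and −1.20 and ATG7 above at 0.01 and −0.06. The shares of the last 2 lists lay below those over all genes.

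**Figure D4:**
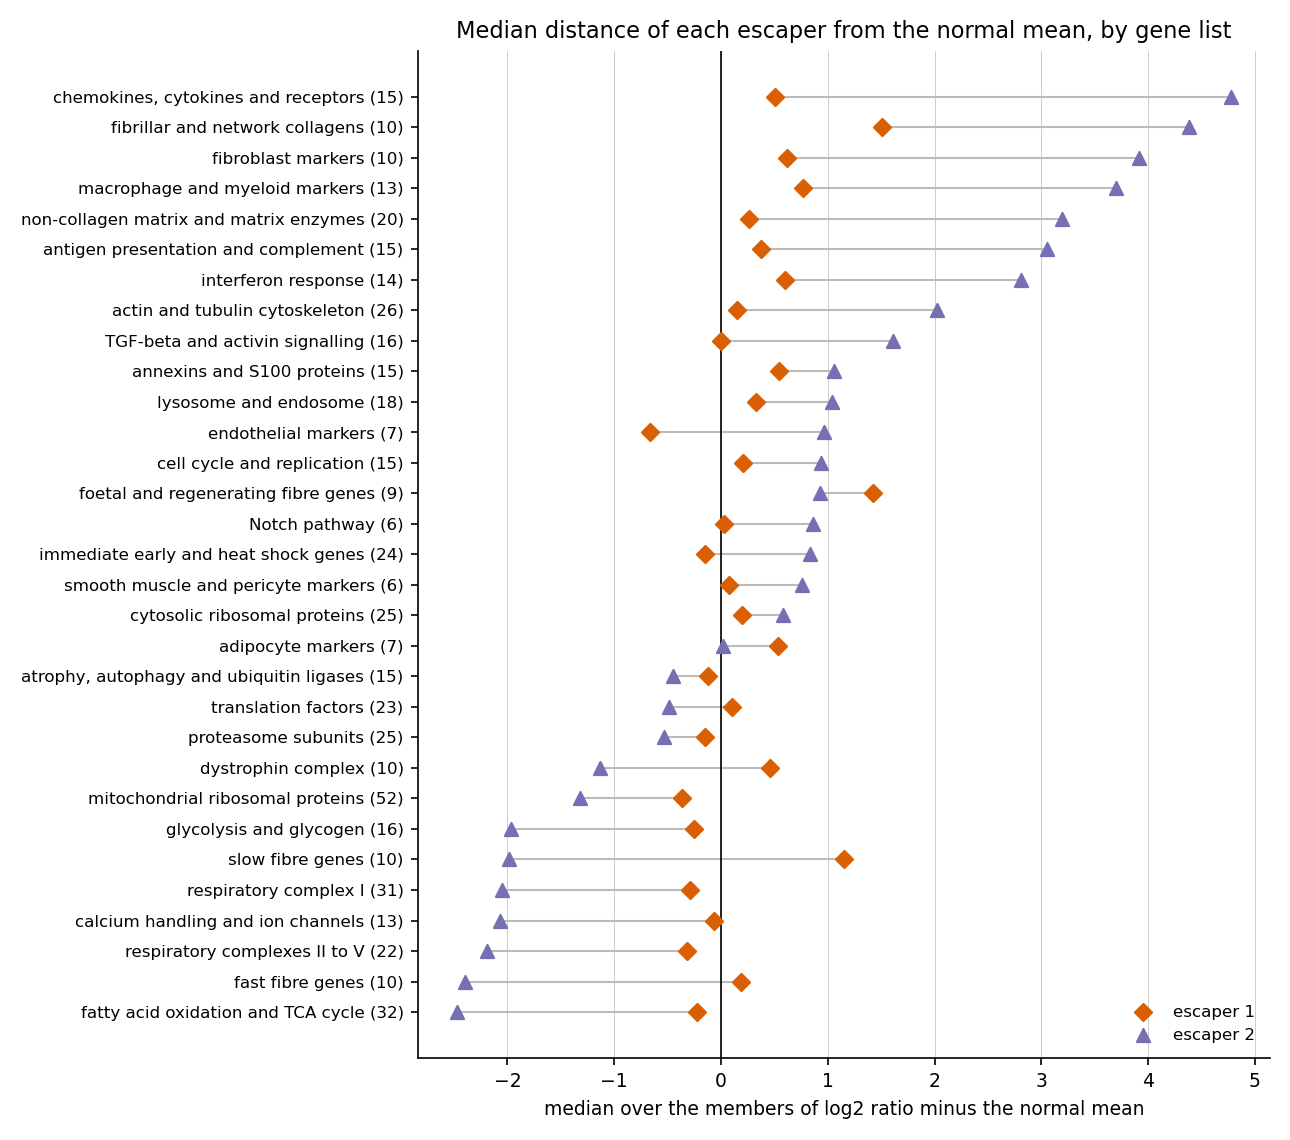
For each gene list with at least 6 tested members, the diamond (escaper 1) and the triangle (escaper 2) mark the median over members of the log2 distance from the normal mean. Escaper 2 is the farther from 0 in most lists, at 4.78 against 0.51 for chemokines and −2.47 against −0.23 for fatty acid oxidation and the TCA cycle, while foetal fibre genes are farther out in escaper 1 (1.42 against 0.93) and slow fibre genes lie on both sides (1.15 and −1.98).

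Contractile genes of adult fibres separated the escapers from each other. Of 10 slow fibre genes, escaper 1 was above the normal range in 9 and escaper 2 below it in 6, and 5 had them on opposite sides. The median distance was 1.15 in escaper 1 and −1.98 in escaper 2. CASQ2, the cardiac and slow calsequestrin, was the 1 with both above, at −0.69 and −1.27 against −3.93 to −1.56. MYH7, slow myosin, was within the range in escaper 1 (0.72) and below it in escaper 2 (−2.54), against −0.05, 1.11, 1.15 and 1.05. MYBPC1, the slow form of myosin-binding protein C, was at 0.94 and −2.90 against −0.02 to 0.24.

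Of 10 fast fibre genes, both escapers were below in 2, MYBPC2, at 0.34 and −4.83 against 1.18 to 2.28, and MYLK2, a myosin light chain kinase, at 0.37 and −3.74 against 0.82 to 2.01. MYLPF, the fast regulatory light chain, was above in both, at 1.05 and 0.61 against −0.16 to 0.28, but its probe was saturated on 18 of 20 arrays. TNNT3, fast troponin T, was at 0.71 and −1.95 against −0.17 to 0.23. Titin, TTN, was by its brightest probe at 0.21 in escaper 1, among normal dogs at 0.07 to 0.32, and at −3.15 in escaper 2. Its probes did not all show this, as with the median over them the difference of group means was 0.040. Desmin, DES, was at 0.44 and −2.17 against −0.81 to 0.52. Saturation touched 12 of 20 arrays for MYBPC1, 11 for TNNT3, 9 for DES and 3 for TTN, and MYBPC2 and MYLK2 were not well above background on the arrays of escaper 2. The median log2 ratio over the 4 tested markers of skeletal fibres was −0.19 to 0.21 in normal dogs, 0.32 in escaper 1 and −2.66 in escaper 2, the lowest of all dogs, affected dogs being at −0.48 to 0.70. This median holds TTN by its brightest probe. Its low value in escaper 2 moves with the low metabolic and contractile genes and the high matrix and immune genes of that dog. The part of fibre content in the result was not tested.

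Endothelial markers also split the pair. Of 7 tested, 6 had escaper 1 below and escaper 2 above the normal range, and in CLDN5, a tight junction protein, both were above, at −0.43 and 1.23 against −1.02 to −0.64. PECAM1, an adhesion molecule of the endothelium, was at −0.91 and 1.31 against −0.40 to 0.13, and EMCN, endomucin, at −0.80 and 1.72 against −0.24 to 0.15. The list's median distance was −0.66 in escaper 1 and 0.96 in escaper 2. Smooth muscle and pericyte markers had both above in 1 of 6 (16.7%), near the 16.1% over all genes. It was DSTN, an actin-depolymerising factor, at 0.20 and 0.61 against −1.91 to −0.66.

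Immediate early genes were among those outside on opposite sides by the widest margin. FOS, a transcription factor induced within minutes, had 2.09, 1.22, −0.07 and 2.29 in normal dogs, −1.45 in escaper 1 and 4.25 in escaper 2. DUSP6, a phosphatase of the MAP kinase ERK, was at −1.41 and 2.47 against 0.28 to 0.79. CCN2, a growth factor of connective tissue, was at −4.39 and −0.16 against −3.22 to −2.49, and AVPR1A, a vasopressin receptor, at −2.62 and 1.81 against −1.39 to −0.65. AVPR1A was well above background on 1 of 8 normal arrays and on no array of escaper 1, so the low side of its call rests on unmeasured signal. In these 4 genes the mean difference, from 0.02 to 0.72, describes neither dog. EGR1, of the same class as FOS, was at −4.49 and 2.06 against −3.97 to −1.62. Over the 24 tested immediate early and heat shock genes, 7 had the escapers on opposite sides, and 3, IER2, FOSL2 and HSP90B1, had both above (12.5%).

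**Figure D5:**
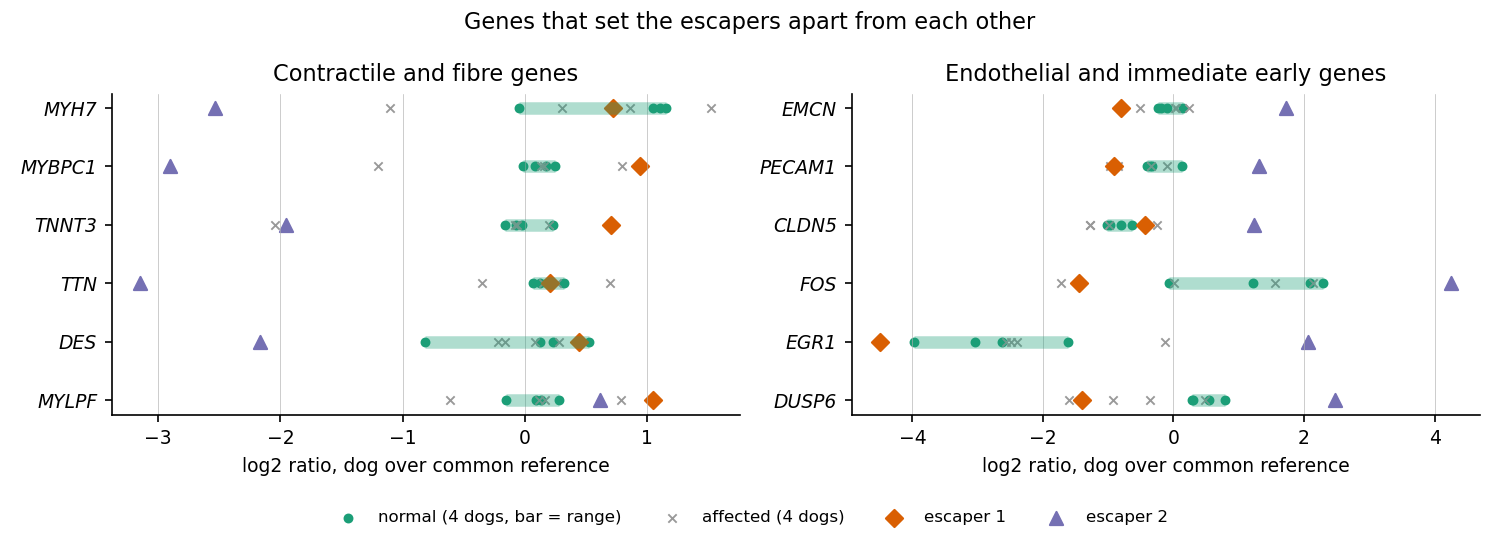
Log2 ratio in each dog for contractile genes (left) and for endothelial and immediate early genes (right), with normal dogs as circles on a bar for their range, affected dogs as crosses, escaper 1 as a diamond and escaper 2 as a triangle. On the left escaper 2 lies below the bar except in MYLPF, and on the right the escapers lie on either side of it except in CLDN5.

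Among genes that only the group mean shows, the largest upward differences had escaper 2 far above escaper 1. SELE, the endothelial selectin that captures leukocytes, was at 9.22 in escaper 2 and −0.47 in escaper 1 against 0.18, −0.74, −0.15 and −0.02 in normal dogs. CXCL8, the neutrophil attractant interleukin 8, was at 5.72 against −5.14 in escaper 1 and −5.63 to −4.12 in normal dogs. NFKBIZ, a regulator of NF-kappa-B, was at 5.47 and −2.12, and CCL4, a chemokine of macrophages, at 4.79 and −0.89. In SELE, CXCL8, NFKBIZ and CCL4 no array of escaper 1 was well above background and both arrays of escaper 2 were. SMPDL3A, a phosphodiesterase, was at 2.71 and −2.68, but normal 3 at −1.97 lay apart from the other normal dogs, at −5.99 to −5.35. No normal array measured SELE, CXCL8 or NFKBIZ. The figures for the escapers' mean were 7.35-fold, 10.4-fold and 4.26-fold higher. They take the unmeasured signal of escaper 1 as it stood, so they are no strict bounds. The mean differences of CCL4 and SMPDL3A were 3.46 and 4.79, and the limma adjusted p of the 5 genes 0.144 to 0.239. Without escaper 2 the difference of SMPDL3A was 2.09.

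Downward, ABRA, an actin-binding protein of striated muscle, was at −3.78 in escaper 2 and −0.81 in escaper 1, with normal dogs from −1.18 to 2.19. PGM1, phosphoglucomutase, was at −4.05 and 0.64 against 0.26 to 1.52, and DLD, the E3 subunit shared by mitochondrial dehydrogenases, at −3.78 and 0.17 against −0.19 to 1.42. CA2, a carbonic anhydrase, was at −2.64 and 2.05, and LGI1, a secreted protein known from epilepsy, at −2.71 and 1.31. Escaper 1 was within the normal range in all 5. The mean differences were from −3.30 to −2.57, and without escaper 2 they were −1.81 in ABRA, −1.13 in LGI1, −0.63 in DLD, −0.42 in PGM1 and −0.23 in CA2. PGM1 and LGI1 were not well above background on the arrays of escaper 2.

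DMD, the dystrophin gene, did not pass the test. Its probe was at 0.31, 0.79, 0.61 and 0.08 in normal dogs and −0.00 and −0.92 in escapers, and it was well above background on 7 of 8 normal arrays and on no escaper array (log2 difference −0.91, SE 0.71, limma adjusted p = 0.457), and its bound was 1.26-fold. Where this probe lies against the mutation is not given, so it does not check the labels. Of 10 tested genes of the dystrophin complex and its partners, both escapers were above in 2 (20%), among them SNTB2, a syntrophin, at −0.35 and 0.82 against −2.0 to −0.87. The 1 with both below was DMD, and 3 had the escapers on opposite sides. Utrophin (UTRN), JAG1, a Notch ligand known from escapers, and myostatin (MSTN) have probes, but these were too dim to be tested. LTBP4, a known modifier that binds latent TGF-beta, was at −0.22 and 0.44 against −0.37 to 0.02.

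Cell types other than fibres, macrophages and fibroblasts were measured through few markers. Mast cell and granulocyte markers were above in both escapers in 2 of 3, S100A8, at −1.84 and −0.81 against −3.52 to −2.01, and CPA3, at 0.75 and 5.06. CPA3 was not well above background on any array of the normal dogs or of escaper 1, so their order is one of unmeasured signals. With loess signals both escapers were above in 0 of the 3, and the list's median difference was 0.61 against 1.42. Of 7 adipocyte markers 1 was above in both (14.3%, against 16.1% over all genes). It was CFD, adipsin, at −0.44 and 1.94 against −1.62 to −0.69. T and NK cell markers (2 tested, NKG7 within the range in escaper 1), B and plasma cell markers (JCHAIN alone) and Schwann cell markers (PMP22 alone) had no gene with both escapers outside, and no red cell marker could be tested. In the cell cycle list 2 of 15 were above (13.3%) and 1 below, CCND2, a D-type cyclin, above at −0.32 and 1.54, MCM4 above and at least 1.22-fold higher, and BIRC5, survivin, below by 0.01.

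Against the affected dogs, no probe passed the same test (0.0%, limma adjusted p of 0.05), and 808 had an unadjusted p under 0.05. This comparison shares its escapers with the comparison above. Of the 983 genes with both escapers above the normal range, both were also above all 4 affected dogs in 94 and within the affected range in 299. Of the 1033 below, both were below all 4 affected dogs in 173 and within their range in 268. Among the genes with a gap of at least 1, both escapers were beyond all 4 affected dogs in 13 of 102 upward and in 10 of 43 downward. TNNT2, BGLAP, GPC3 and MRPL1, described above, are those among the 12 widest gaps in each direction.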

How the data were processed

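RNA of muscle from 10 dogs was measured on 20 canine Agilent arrays of 2 colours, labelled with the Low Input Quick Amp kit, per the labels' protocols. Per the file headers, Feature Extraction 9.5.3.1 quantified the spots, and the deposited scanner files hold intensity values for each spot. The deposited value table holds log2 ratios whose making is not given in the sources used here. It equals the log2 ratio of the scanner files' processed signals, dog over reference, on every array (r = 1, largest difference 0), which settles scale and direction. Its columns are not centred, with medians from −0.16 to 0.25, and why is unknown. This table was the source of the main values, as the comparison is defined on it, although scanner files exist.

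The 2 arrays of a dog were averaged, so the dog is the replicate. Controls and outlier-flagged spots were dropped, and saturated spots were kept. Of 42034 probes, 16008 were tested, those with a value in every dog and, for 2 or more dogs, a signal well above background on each array of the dog. Of 12152 probes with a symbol, 10048 matched a dog gene table (assembly UU_Cfam_GSD_1.0, names only) by symbol, 1107 by gene ID, 153 by synonym and 11 by accession, and 833 kept the file's symbol. The other 29882 stayed unnamed. Where several probes carried a symbol, the brightest on average stood for the gene. All 10 dogs entered 1 fit in limma 3.58.1 (R 4.3.3) with 3 groups, and p-values were adjusted by Benjamini-Hochberg over the tested probes with a threshold of 0.05. The code was tested on simulated data. Nothing says that dogs of a group came from separate litters, so the p-values speak of these dogs alone. They set a difference against a spread pooled over the 3 groups. That assumes groups that vary alike, although the escapers lay at unlike distances from the normal dogs.

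The groups, 38 gene lists and the genes named were chosen with earlier results of these data known. Some genes are members of several lists. Named genes are, per direction, the 12 widest gaps among genes well above background on all arrays of the higher group, the 5 smallest p and the 5 largest differences that only the mean shows, then 4 genes on opposite sides, up to 3 members of each list and 7 disease genes. CHRNG, COL5A1, COL6A1, COL12A1, TTN, DES, MYH7, MYBPC1, TNNT3, EMCN, PECAM1, EGR1, LGALS3, CCL2, IRF9, CD68, THY1, LUM, DCN and H19 were chosen after their values were seen. Some genes are not reported here. Alternatives were loess-normalised scanner signals (normexp, offset 50), centring, quantile normalisation, 2 other filters, each dye alone, each dog left out, slide or dog as a random block, escapers and normal dogs alone, and trended robust variance.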

Additional observations from a re-analysis of the deposited data

Results flagged for a closer look

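Among the 145 genes looked at singly, 6 had 1 normal dog far from the other 3, by Dixon's ratio of gap to range at the 95% level for 4 dogs. Chance gives this for about 1 group in 20. The escaper group, with 2 dogs, cannot be looked at in this way. Normal 1 stood apart in 4 genes. MYH7, slow myosin, was at −0.049 in normal 1 and from 1.05 to 1.15 in the others. IFI6, an interferon-induced gene, was at −2.88 against −1.87 to −1.73, and LGI1 at 1.03 against 2.76 to 3.09. ETFDH was at 0.24 against 0.34 to 0.36. PECAM1 was at 0.13 in normal 2 against −0.40 to −0.33. SMPDL3A was at −1.97 in normal 3 against −5.99 to −5.35, and this dog alone keeps escaper 1 within the normal range.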

How the results depend on the processing

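The count of 4 probes past the threshold was 0 with loess-normalised scanner signals, each array centred, quantile normalisation, no filter on dim probes, only Cy5 arrays, only Cy3 arrays, or trended robust variance. It was 2 with probes well above background in all 6 dogs. With normal and escaper dogs alone it was 15, of which 12 were higher in escapers. It was 2509 with the slide as a random block (estimated correlation −0.322) and 1316 with all arrays and the dog as a block. Leaving out 1 dog gave 0 to 4549. Genes with both escapers above numbered 1492 with no filter, 595 with the strict filter and 394 where all arrays had to lie apart, and those below 359 in the last case. Leaving out 1 normal or escaper dog can only raise the counts above and below, and gave 1121 to 2385 above and 1144 to 2491 below. The highest of these count escaper 2 alone. Gaps of at least 1 numbered 25 and 7 with loess and 35 and 10 with the strict filter, and 28 downward with Cy5 arrays only. Leaving out 1 dog gave 118 to 1002 upward and 49 to 964 downward, again a move that can only be a rise. Genes that only the mean shows numbered 225 with loess, 330 with quantile normalisation and 260 with the strict filter, and 20 to 502 without 1 dog. With 1 escaper left, a gene counts here only if that dog lies within the normal range, so low counts follow from the definition. Why the settings other than leaving out a dog moved the counts was not tested.

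Of differences of single genes under alternatives, 2736 kept direction and side, 305 were newly past the threshold, 47 no longer past it and 25 turned. A difference could not turn without an affected dog, with normal and escaper dogs alone, with the slide as a block or with trended robust variance. The counts include these settings. Over the fits that left out 1 dog, the lowest value coming without one escaper and the highest without the other, differences ranged from −1.49 to 2.94 in AVPR1A, −1.45 to 2.77 in CCN2, −0.51 to 3.17 in COL1A1, −0.12 to 10.7 in CXCL8, −2.19 to 0.43 in DES, −1.88 to 1.999 in DUSP6, −1.68 to 4.87 in EGR1, −0.70 to 1.82 in EMCN, −2.84 to 2.87 in FOS, −0.066 to 1.87 in JCHAIN, −0.021 to 0.64 in LTBP4, −0.15 to 4.70 in LUM, −3.02 to 0.82 in MYBPC1, −0.66 to 1.55 in PECAM1, −0.29 to 9.41 in SELE, −1.94 to 0.71 in TNNT3 and −3.32 to 0.032 in TTN. With quantile normalisation DUSP6 was −0.47 and FOS −0.78, FOS was −0.067 with Cy5 arrays only, and TTN 0.040 as the median over its probes. No paired analysis was possible because the labels give no replicate numbers that groups share.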
